A study of Homo sapiens with 24 samples.

Results

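A set of 10 inflammatory genes was followed through 24 RNA-seq libraries of a polysome profiling experiment in A549 and H460 cells. They are the CXC chemokines CXCL1, CXCL2, CXCL3, CXCL5 and CXCL8, the cytokine IL6, the pentraxin PTX3, the interleukin-1 receptor IL1R1, and the NF-κB inhibitors NFKBIA and TNFAIP3. The 10 genes were taken by symbol from the 60666 rows of the count table, and each symbol matched 1 row. The symbols were chosen by name with earlier results of these data known, among them the log2 changes of the A549 siRIC comparison in total RNA, and which value chose which gene is not recorded. The fold changes and adjusted p-values of these genes are therefore given as a description and not as independent evidence. All but IL1R1 and NFKBIA read higher in every H460 library than in any A549 library of the same siRNA and fraction.

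A549 is a human lung adenocarcinoma line and H460 a human large cell lung carcinoma line. Each received a control siRNA (siNT, labelled wild type) or an siRNA against RICTOR (siRIC, labelled Rictor knockdown), and total and polysomal RNA were sequenced. RICTOR is the defining subunit of the mTORC2 kinase complex. The 2 lines, 2 siRNAs and 2 RNA fractions gave 8 groups of 3 libraries, which share RPMI medium and carry no other labelled treatment. Transfection leaves a residual level of the target, and each line is a single cell line, so the groups describe these lines and not a tumour. The titles number the libraries of a group as replicates 1 to 3, and libraries of one line with the same number were treated as a pair. Nothing in the labels ties the numbers to separate cultures, and the p-values therefore reflect the spread among these libraries, which may be technical.

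CXC chemokines with a Glu-Leu-Arg motif, to which the 5 members belong, attract neutrophils through the receptors CXCR1 and CXCR2. NF-κB is a family of transcription factors held in the cytoplasm by inhibitors such as the product of NFKBIA, and interleukin-1 binding to IL1R1 or tumour necrosis factor binding to its receptor releases it. It activates genes for chemokines, for IL6, a cytokine that signals through gp130 to STAT3, and for PTX3, a secreted pattern recognition protein of innate immunity. NFKBIA and TNFAIP3, a ubiquitin-editing enzyme known as A20, are themselves NF-κB targets that feed back on the pathway. In lung epithelium and lung tumours these chemokines are known for recruiting neutrophils.

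The 5 chemokine genes lie within 359 kb of chromosome 4 (GRCh38.p14, chr4:73740569-74099195, RefSeq gene bounds). The 150 bases upstream of the RefSeq start of these genes and of PTX3 are printed to show the letters that the 5 chemokines share and how close the copies CXCL1, CXCL2 and CXCL3 are. Whether these letters bear on the levels was not tested. Sequences are from RefSeq, GRCh38.p14, 5′ to 3′ on the gene strand, with capitals marking the letters GGAATTTCC in the chemokines and, in PTX3, which lacks them, the matches to the 10-letter NF-κB consensus on both strands.
CXCL1, chr4:73869243-73869392 (plus strand): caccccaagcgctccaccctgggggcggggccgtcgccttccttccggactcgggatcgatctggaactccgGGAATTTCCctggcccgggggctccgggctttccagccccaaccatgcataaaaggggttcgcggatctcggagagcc
CXCL2, chr4:74099196-74099345 (minus strand): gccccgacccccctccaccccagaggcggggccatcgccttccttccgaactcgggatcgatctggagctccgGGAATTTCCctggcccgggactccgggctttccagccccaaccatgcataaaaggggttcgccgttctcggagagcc
CXCL3, chr4:74038690-74038839 (minus strand): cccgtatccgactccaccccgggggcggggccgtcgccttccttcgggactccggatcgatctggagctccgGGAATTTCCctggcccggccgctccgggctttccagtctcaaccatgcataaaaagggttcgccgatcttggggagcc
CXCL5, chr4:73998678-73998827 (minus strand): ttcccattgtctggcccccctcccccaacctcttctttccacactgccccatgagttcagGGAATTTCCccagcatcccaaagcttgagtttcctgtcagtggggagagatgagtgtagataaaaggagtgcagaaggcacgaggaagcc
CXCL8, chr4:73740419-73740568 (plus strand): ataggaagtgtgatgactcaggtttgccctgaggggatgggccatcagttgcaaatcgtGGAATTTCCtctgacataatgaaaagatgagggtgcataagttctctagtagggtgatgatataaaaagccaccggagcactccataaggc
PTX3, chr3:157436700-157436849 (plus strand): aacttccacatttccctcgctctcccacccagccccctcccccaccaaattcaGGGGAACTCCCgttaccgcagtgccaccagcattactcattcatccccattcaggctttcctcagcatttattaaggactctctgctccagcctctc
The letters GGAATTTCC, searched on both strands of the window from 250 bases before to 50 bases after the start, were present in 6 of the 10 genes. These were the 5 chemokines, with the first base at −78 in CXCL1, −77 in CXCL2, −78 in CXCL3, −90 in CXCL5 and −91 in CXCL8, and NFKBIA, on the opposite strand at −81. Of the 35116 RefSeq windows of this length, 162 (0.461%) held these letters. The letters searched are ones that the 5 chemokines share, and the promoters of CXCL1, CXCL2 and CXCL3 are close to one another. The 6 genes are therefore not read against that share. The 10-letter NF-κB consensus, which overlaps the 9-letter motif, was found in 8 genes and in 5.91% of all windows. CXCL8 lacked the consensus, and its window alone among the members held the AP-1 motif TGANTCA, which 7.71% of windows hold. Motif TATAAA was matched in CXCL8, IL1R1 and NFKBIA, against 11.5% of windows. IL1R1, which has 4 windows in the table, had no match to either NF-κB motif. The chemokine promoters were also aligned in pairs over 120 bases around the shared letters GGAATTTCC, so every stretch holds these letters. CXCL1 was identical to CXCL2 at 92.6% and to CXCL3 at 91.7% of alignment columns, and CXCL2 to CXCL3 at 88.4%. Pairs with CXCL5 or CXCL8 ranged from 40% to 47.8%. Only promoters and not transcripts were compared. The sources used here do not say how the quantification divided reads between CXCL1, CXCL2 and CXCL3, so their separate levels are uncertain. Their estimated counts were whole in the A549 libraries. In H460 some were not, such as 1465.48 for CXCL2 in siRIC total library 2.

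**Figure D1:**
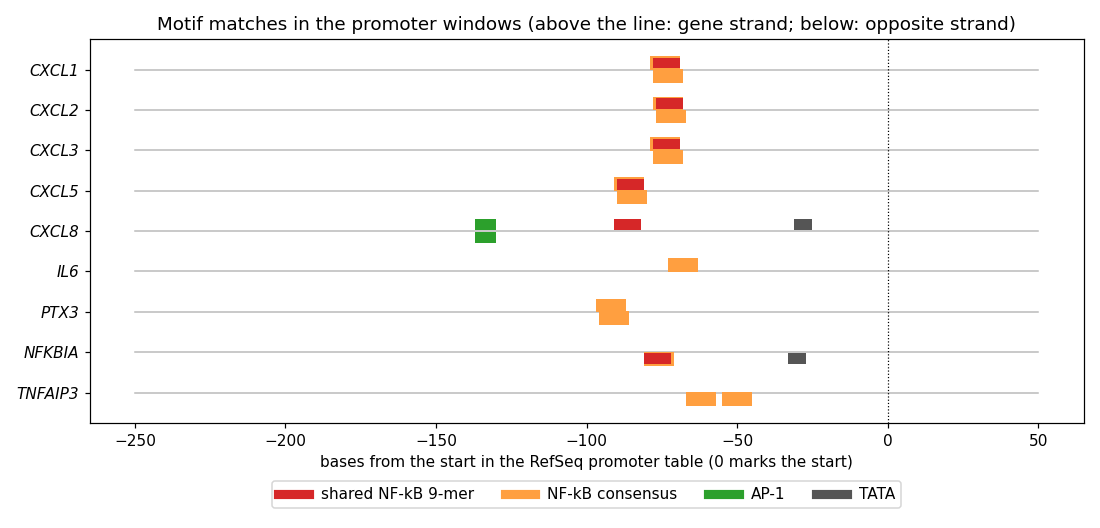
Matches to 4 motifs in the promoter windows of 9 of the genes, by distance in bases from the start in the RefSeq promoter table on the x axis. For TNFAIP3 that start lies inside the gene bounds and not at their edge. Bars above a line are on the gene strand and bars below it on the opposite strand. The shared 9-letter NF-κB motif starts between −77 and −91 in the 5 chemokines.

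Across the series, library totals ranged from 19087204 to 26550160 estimated counts. RICTOR was lower in every siRIC library than in any siNT library of its line and fraction. By edgeR's quasi-likelihood test with Benjamini-Hochberg adjustment, its log2 change in A549 was −1.38 ± 0.23 (SE) in total RNA (adjusted p = 0.0159) and −1.49 ± 0.23 in polysomal RNA (adjusted p = 0.00700). In H460 it was −1.52 ± 0.30 (adjusted p = 1) and −1.90 ± 0.31 (adjusted p = 0.620), so in H460 the test did not call even the targeted gene. Both lines held epithelial keratins: 5 of 6 epithelial markers exceeded 1 CPM (scaled counts relative to library size) on average in A549 and 4 of 6 in H460, where EPCAM and CDH1 did not. In H460 5 of 6 fibroblast markers, among them COL1A1, COL3A1, PDGFRB, DCN and LUM, also exceeded 1 CPM, with summed levels from 68.4 to 177 CPM against 5.34 to 11.2 in A549. None of the 5 lung lineage markers exceeded 1 CPM in either line, and of the 7 leukocyte markers CD14 and CD68 did in both lines and ITGAM in A549. A549 siRIC polysomal replicate 1 and both H460 polysomal libraries of replicate 3 stood apart from the others of their line. Some polysomal results within a line are also given without them, and the comparisons of lines are given with them.

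For 8 of the 10 genes the fitted log2 difference between the lines was larger than any between siRNAs or fractions, and for IL1R1 and NFKBIA it was not. Levels are given as CPM on TMM-scaled library sizes and are compared only between libraries of the same gene, since transcript lengths were not used. Each gene was tested with edgeR's quasi-likelihood test, and a call means a Benjamini-Hochberg adjusted p of at most 0.05 over all genes tested. In siNT total RNA 9 of the 10 genes were called, all higher in H460, against 55.1% of all genes called in either direction. In siNT polysomal RNA 8 were called, all higher in H460, against 58.2% of all genes. The members' median log2 difference was 4.48 in total and 4.55 in polysomal RNA, and that over all genes tested was −0.02 and 0.03. IL6 is included in these counts and medians. It passed the filter on low counts only through H460, so its calls are not read against the shares of all genes. In bulk RNA of this kind, more expressing cells and more RNA per cell cannot be told apart.

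**Figure D2:**
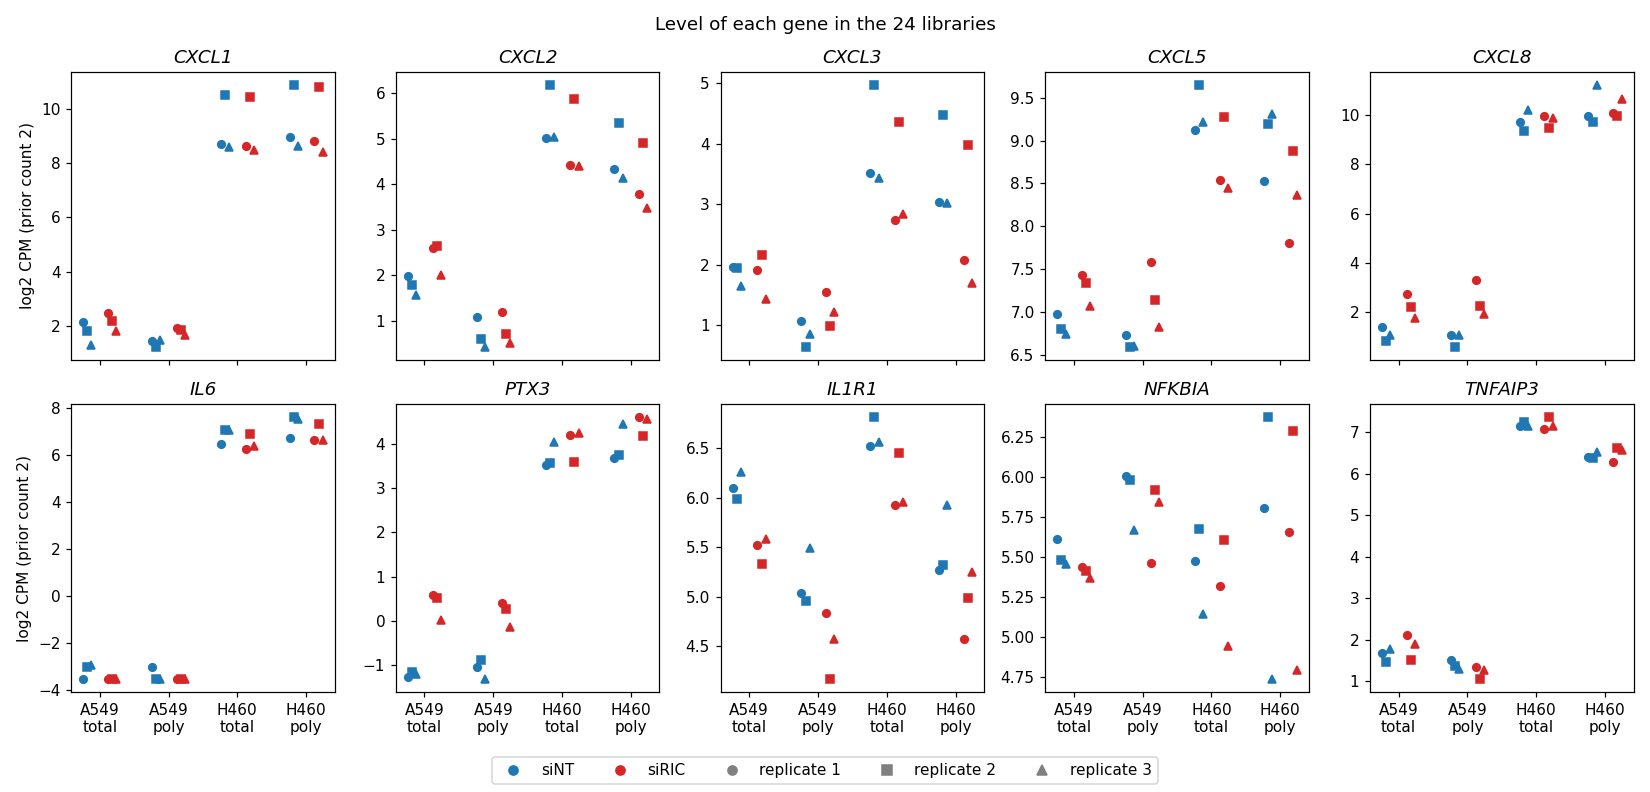
Level of each gene in each of the 24 libraries, as log2 CPM with a prior count of 2 on the y axis, by line and fraction. Colours give the siRNA and symbols the replicate number, each panel has its own y range, and points are single libraries. CXCL1, CXCL2, CXCL3, CXCL5, CXCL8, IL6, PTX3 and TNFAIP3 are higher in every H460 library than in any A549 library of the same siRNA and fraction, and NFKBIA overlaps.

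CXCL8, the neutrophil chemoattractant interleukin-8, read 2.54, 1.70 and 2.01 CPM in the A549 siNT total libraries 1, 2 and 3 and 822, 649 and 1175 CPM in those of H460. The lowest H460 library was far above the highest A549 library. The log2 difference was 8.72 ± 0.50 (SE, n = 3 per group) in edgeR's quasi-likelihood test (adjusted p = 6.87e-13), and 9.57 ± 0.51 in polysomal RNA. CXCL1, which acts on the receptor CXCR2, read 4.34, 3.48 and 2.41 CPM in A549 and 411, 1456 and 382 CPM in H460, a log2 difference of 7.78 ± 0.83. H460 library 2 was the highest by a wide margin, and the groups did not overlap.

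CXCL2 read 3.89, 3.37 and 2.89 CPM in A549 and 32.1, 72.1 and 32.9 CPM in H460 (log2 difference 3.75 ± 0.46). CXCL3 read 3.81, 3.77 and 3.06 CPM in A549 and 11.4, 31.3 and 10.7 CPM in H460 (2.33 ± 0.55). Both are close relatives of CXCL1 with the same receptor, and in both H460 library 2 was again the highest. CXCL5, an epithelial neutrophil attractant, read 126, 111 and 107 CPM in A549 and 557, 804 and 597 CPM in H460 (2.51 ± 0.27). The groups did not overlap for any of the 5 chemokines in either fraction.

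IL6 was close to absent from the A549 libraries. It had 2 counts in the 3 A549 siNT total libraries and 1 in the siNT polysomal libraries, and 0 in the 6 siRIC libraries. In H460 it read 88.9, 134 and 132 CPM in siNT total RNA, a summed 7421 counts. The ratio of H460 to A549 was 4461 (95% exact interval for counting error, 1235 to 36845) in siNT total RNA and 12226 (2194 to 482936) in siNT polysomal RNA. In siRIC RNA, where A549 had no count, H460 was at least 2260-fold higher in total and at least 2880-fold higher in polysomal RNA, taking 3 counts over the group as the limit that 0 counts allow. These intervals and limits cover counting error only. IL6 passed the filter on low counts only through H460 and was not tested within A549. An antisense gene, IL6-AS1, read 0.767 to 1.72 CPM in the H460 libraries and 0 in A549. Since no source used here says whether the counting used strand, reads of the pair cannot be told apart.

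PTX3 read 0.328, 0.362 and 0.350 CPM in A549 and 11.3, 11.8 and 16.2 CPM in H460 siNT total RNA. Its log2 difference was 5.22 ± 0.31 (adjusted p = 1.26e-12, edgeR quasi-likelihood). TNFAIP3 read 3.12, 2.64 and 3.32 CPM in A549 and 141, 152 and 141 CPM in H460 (5.58 ± 0.19). NFKBIA, the other inhibitor, did not follow it. It read 48.8, 44.5 and 43.8 CPM in A549 and 44.3, 51.1 and 35.2 CPM in H460, the groups overlapped, and the log2 difference was −0.07 ± 0.31 (adjusted p = 0.865).

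IL1R1, the signalling receptor for interleukin-1, read 68.5, 63.5 and 76.4 CPM in A549 and 92.0, 112 and 94.2 CPM in H460 siNT total RNA. The groups did not overlap in total RNA, and the log2 difference of 0.52 ± 0.21 was called narrowly (adjusted p = 0.0447, edgeR quasi-likelihood). It was no longer called with median-of-ratios size factors (adjusted p = 0.0500243, edgeR) or in 13 of the 24 fits that left out 1 library (highest adjusted p = 0.152). In polysomal RNA the groups overlapped and the difference was 0.35 ± 0.22 (adjusted p = 0.167). It ran from 0.04 to 0.54 over the 24 fits that left out 1 library and was called in none. The antisense gene IL1R1-AS1 read 0 in both lines.

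Other genes of the pathway, taken from lists chosen with earlier results known, went in both directions between the lines. In siNT total RNA 38 of 107 tested were called higher and 32 lower in H460, beside the 55.1% of all genes called. Among 8 tested interleukin-1 family ligands and receptors, 5 were called higher and 2 lower in H460 siNT total RNA. They included IL1RAP, the co-receptor of IL1R1 (log2 difference 2.91 ± 0.28), IL1RL1, the receptor of IL-33 (7.18 ± 0.39), IL18R1 (5.38 ± 0.32), and the cytokine IL18, which was lower in H460 (−3.14 ± 0.16). Of 9 NF-κB subunits and kinases, 2 were called higher and 3 lower. The subunit gene NFKB1 was at 0.82 ± 0.14 and MAP3K14, the kinase of the alternative pathway, at −1.41 ± 0.29. Among 12 other NF-κB inhibitors and feedback genes none was called higher and 4 were called lower, with BIRC3 at −2.80 ± 0.27 and TNIP1 at −1.17 ± 0.29. In the IL6 family, 5 of 10 were called higher and 4 lower, with SOCS3, a feedback inhibitor of STAT3 signalling, at 2.99 ± 0.20 and IL11 at −7.48 ± 0.39. Of 18 listed inflammatory targets 10 were tested, and 5 were called higher and 5 lower, with the collagenase MMP1 at 15.17 ± 0.60, PLAUR at 2.26 ± 0.24, complement C3 at −5.13 ± 0.50 and PTGS2, the inducible cyclooxygenase, at −2.93 ± 0.37. Of 8 TNF and Toll-like receptors 4 were called higher and none lower, and of 16 interferon response genes 10 were called higher and 2 lower. The chemokine CCL2 read 3.78 ± 0.99 CPM (SD, n = 3) in A549 siNT total RNA and had no count in that of H460.

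In A549, CXCL1, CXCL2, CXCL5 and CXCL8 were higher after siRIC in all 3 pairs of both fractions. Of all genes, 24.1% in total and 16.4% in polysomal RNA were higher in all 3 pairs. PTX3 was also higher in every pair, and CXCL3 in 1 of 3 in total and 3 of 3 in polysomal RNA. The chemokines other than CXCL8 had smaller fitted log2 changes above 0 that were not called in the test without a block. PTX3 was called higher in total RNA and CXCL8 in polysomal RNA, so 1 of 9 tested genes was called in each fraction. The share of all genes called was 0.325% in total and 0.676% in polysomal RNA. PTX3 passed the filter on low counts through its siRIC libraries, so its call is not read against that share. With the replicate number as a block in the same edgeR fit, CXCL8, PTX3 and IL1R1 were called in total RNA, and CXCL5 in addition in polysomal RNA. That fit called 1.68% of all genes in total and 3.51% in polysomal RNA, and PTX3 is not read against these shares either. The median log2 change of the 9 genes, PTX3 included, was 0.39 in total and 0.42 in polysomal RNA. Over all genes tested it was 0.01 and 0.02. The genes were chosen with A549 changes in total RNA known, so the distance between these medians is not a result about the members.

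**Figure D3:**
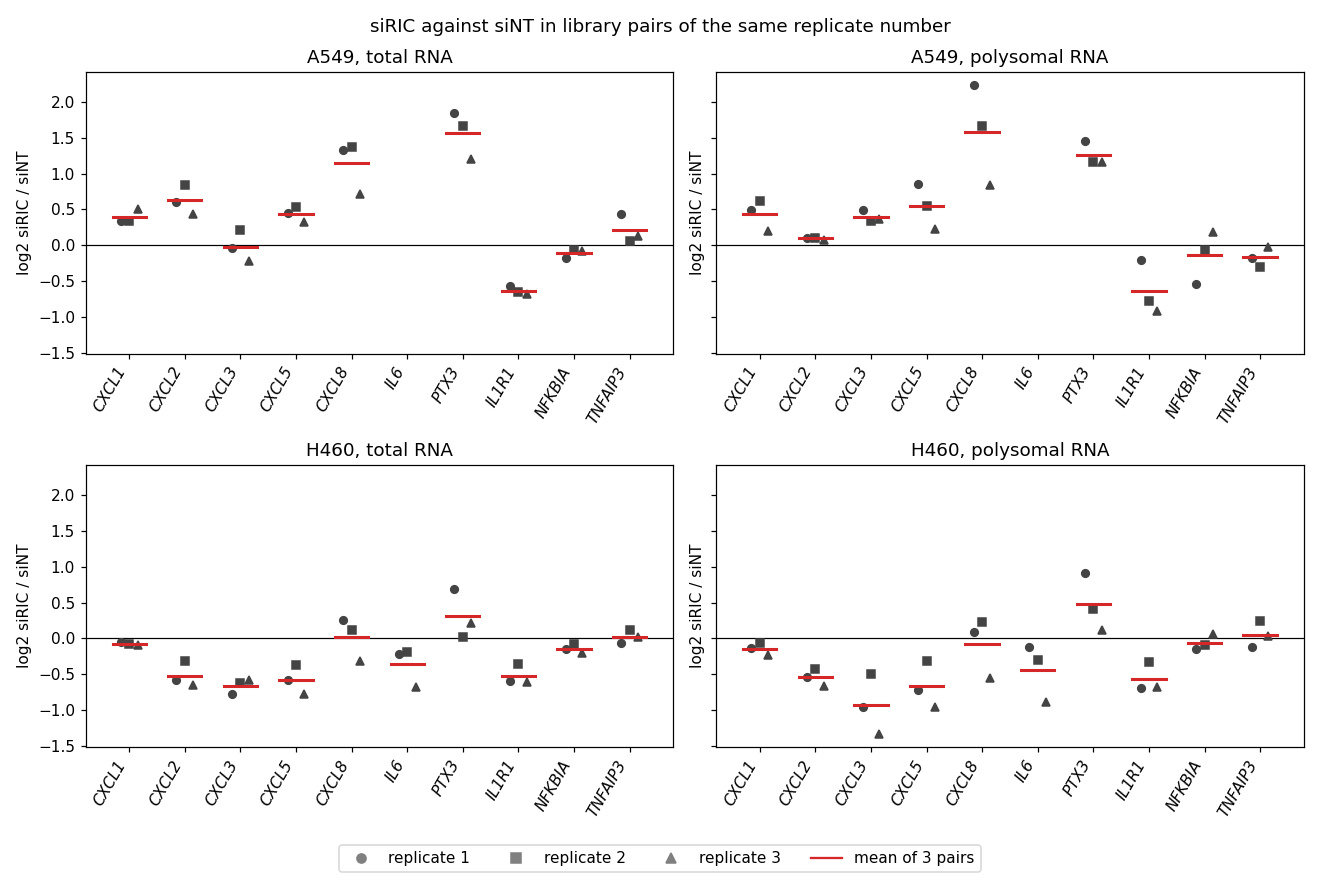
Log2 ratio of siRIC to siNT (y axis) in each pair of libraries with the same replicate number, for each gene, line and fraction. Symbols are single pairs and red bars their means; IL6 is not drawn for A549. CXCL1, CXCL2, CXCL5, CXCL8 and PTX3 are above 0 in all A549 pairs, and IL1R1 is below 0 in all 12 pairs. In all H460 pairs CXCL1, CXCL2, CXCL3, CXCL5 and IL6 are below 0 and PTX3 is above 0.

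PTX3 read 0.328, 0.362 and 0.350 CPM in the A549 siNT total libraries and 1.40, 1.33 and 0.920 CPM with siRIC. Every siRIC library was above every siNT library. The log2 change was 1.80 ± 0.36 (SE, n = 3 per group; adjusted p = 0.0457, edgeR quasi-likelihood; 0.0122 with the block). In polysomal RNA it read 0.396, 0.454 and 0.317 CPM in siNT libraries and 1.24, 1.12 and 0.819 CPM after siRIC, again without overlap, at 1.43 ± 0.36 (adjusted p = 0.0878; 0.0305 with the block). Without the siRIC polysomal library 1 that stands apart it was 1.31 (adjusted p = 0.0758; 0.0307 with the block). These are low levels. PTX3 exceeded the filter's cut-off of 0.448 CPM in 6 of 6 siRIC and 1 of 6 siNT libraries of A549, so it entered the test through the group in which it was high. The call in total RNA was lost in 10 of the 12 fits that left out 1 library, with adjusted p up to 0.252 and log2 changes from 1.69 to 1.98.

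CXCL8 read 2.54, 1.70 and 2.01 CPM in siNT libraries and 6.54, 4.54 and 3.37 CPM after siRIC in A549 total RNA, with no overlap. Its log2 change there was 1.21 ± 0.34 (adjusted p = 0.203, edgeR quasi-likelihood; 0.0151 with the block; 0.0431 without the siRIC polysomal library 1 that stands apart). In polysomal RNA it read 2.01, 1.44 and 2.04 CPM in siNT libraries and 9.86, 4.75 and 3.72 CPM after siRIC, also with no overlap. The change was 1.74 ± 0.34 (adjusted p = 0.0235; 0.00115 with the block). Pair 1, with the siRIC polysomal library that stands apart, had the largest ratio, and without that library the change was 1.23 and still called (adjusted p = 0.0409). Leaving out any 1 of the siNT polysomal libraries ended the call (adjusted p = 0.119, 0.130 and 0.0699), and over all fits that left out 1 library the log2 change ran from 1.23 to 2.01.

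CXCL5 read 126, 111 and 107 CPM in siNT libraries and 172, 162 and 134 CPM after siRIC in A549 total RNA, a log2 change of 0.45 ± 0.18 (adjusted p = 0.582, edgeR quasi-likelihood). Polysomal values were 106, 96.4 and 96.8 CPM against 192, 141 and 113 CPM, a change of 0.58 ± 0.18 (adjusted p = 0.172; 0.0254 with the block). It was also called by DESeq2 (adjusted p = 0.0423) and by edgeR with no filter on low counts (0.0478), and not with the block on only the groups compared (0.0907). Without the siRIC polysomal library 1 that stands apart the change was 0.36 (adjusted p = 0.175), or 0.42 with the block (0.00905). The groups did not overlap in either fraction. CXCL1 was higher in 3 of 3 pairs in both fractions, with changes of 0.39 ± 0.24 and 0.45 ± 0.25 that were not called. CXCL2 was at 0.66 ± 0.25 in total and 0.09 ± 0.28 in polysomal RNA, and CXCL3 at 0.01 ± 0.24 and 0.42 ± 0.26, none of them called without the block. In total RNA the block on only the groups compared, added after the data had been seen, called CXCL2, CXCL5, CXCL8, PTX3 and IL1R1. The adjusted p ran from 5.16e-08 for IL1R1 to 0.00499 for CXCL2 (edgeR quasi-likelihood), and 18.6% of all genes were called. In polysomal RNA that fit called CXCL8 and IL1R1, and 2.32% of all genes. PTX3 is not read against these shares.

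IL1R1 went the other way in A549. It read 68.5, 63.5 and 76.4 CPM in siNT libraries and 46.0, 40.2 and 47.8 CPM after siRIC in total RNA. Its polysomal values were 32.7, 30.9 and 44.9 CPM against 28.4, 17.9 and 23.6 CPM. All 3 pairs were lower and the groups did not overlap in either fraction. The log2 changes were −0.63 ± 0.17 (adjusted p = 0.186, edgeR quasi-likelihood; 0.0230 with the block) and −0.63 ± 0.18 (0.130; 0.0205 with the block). In polysomal RNA, without the siRIC library 1 that stands apart, the change was −0.78 and passed (adjusted p = 0.0281). The inhibitors NFKBIA (−0.11 ± 0.15 and −0.13 ± 0.14) and TNFAIP3 (0.23 ± 0.21 and −0.17 ± 0.22) were not called in total or polysomal RNA. In total RNA the siRIC and siNT libraries of A549 did not overlap for CXCL2, CXCL5, CXCL8, IL1R1 and NFKBIA. In polysomal RNA they did not overlap for CXCL1, CXCL5, CXCL8 and IL1R1. Of all genes tested, 17.7% and 12.8% shared that state. PTX3, which entered the test through its siRIC libraries, and IL6, which was not tested in A549, are not read against these shares.

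Among the 96 other listed pathway genes tested in A549, edgeR's quasi-likelihood test without the block called none in total RNA and 1, lower, in polysomal RNA. It called 0.325% of all genes in total and 0.676% in polysomal RNA. The fit with the block called 2 higher and 1 lower in total and 4 higher and 2 lower in polysomal RNA, beside 1.68% and 3.51% of all genes. Those called higher in both fractions were PTGS2, at 0.70 and 0.93 without the block, and PLAUR, the urokinase receptor, at 0.58 and 0.48. LIF and IL6ST, the gp130 subunit of the IL6 receptor family, were called higher in polysomal RNA. The block on only the groups compared, added after the data had been seen, called 14 of the 96 higher and 14 lower in total RNA. In polysomal RNA it called 2 higher and 2 lower. Of all genes, that fit called 18.6% in total and 2.32% in polysomal RNA. Beside the pathway genes, the epithelial markers KRT8 (−0.65), KRT18 (−0.63) and CDH1 (−0.63) were lower in A549 total RNA. They were called with the block in the fit of all A549 libraries. The block also called 3 epithelial markers lower in polysomal RNA. Of 6 epithelial markers tested, 1 in total and 2 in polysomal RNA were above 0. Of 3 leukocyte markers tested, CD68 (−0.57) was lower in total RNA and called with the block, and 1 was above 0. Their median log2 change was −0.09 in total and −0.04 in polysomal RNA, and PTPRC and CD3E were not tested. Of 3 fibroblast markers tested none was called, and 2 were above 0, with a median log2 change of 1.12 in total and 0.61 in polysomal RNA. Their part in the changes of the 10 genes was not tested.

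In H460 no member was called after siRIC, in total or in polysomal RNA, and neither was any other gene (0% called in total and 0% in polysomal RNA). At an unadjusted p under 0.05 edgeR's quasi-likelihood test gave 167 and 252 of all genes, among them 0 and 1 members. DESeq2 called 4 and 1 genes in all and no member. The pairs nevertheless went one way for many members. CXCL1, CXCL2, CXCL3, CXCL5, IL6 and IL1R1 were lower with siRIC in all 3 pairs of both fractions, and NFKBIA in all 3 of total RNA. Of all genes, 19.8% in total and 15.4% in polysomal RNA were lower in all 3 pairs. The median log2 change of the 10 genes was −0.24 in total and −0.33 in polysomal RNA, against 0.02 and 0.02 over all genes tested.

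CXCL3 read 11.4, 31.3 and 10.7 CPM in siNT libraries and 6.61, 20.4 and 7.08 CPM after siRIC in H460 total RNA. The groups overlapped, with library 2 high in both. The log2 change was −0.64 ± 0.68 without and −0.66 ± 0.18 with the block (adjusted p = 1 in both, edgeR quasi-likelihood), and in polysomal RNA −0.72 ± 0.69 and −0.89 ± 0.18. CXCL2 read 32.1, 72.1 and 32.9 CPM against 21.4, 57.8 and 20.9 CPM in total RNA, with the same high library 2, at −0.44 ± 0.52 without and −0.51 ± 0.13 with the block.

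CXCL5 read 557, 804 and 597 CPM in siNT libraries and 374, 620 and 348 CPM after siRIC in H460 total RNA. Its polysomal values were 368, 586 and 637 CPM against 223, 469 and 328 CPM. Each siRIC library was below the siNT library of its number, and the groups overlapped. The log2 changes were −0.54 ± 0.33 and −0.64 ± 0.33 (adjusted p = 1 in both, edgeR quasi-likelihood). IL6 read 88.9, 134 and 132 CPM against 76.6, 117 and 82.5 CPM in total RNA (−0.35 ± 0.30). On polysomes it read 106, 194 and 185 CPM against 98.1, 157 and 99.5 CPM (−0.45 ± 0.30). Without both polysomal libraries of replicate 3, no member was called in polysomal RNA either, with CXCL5 at −0.47 and IL6 at −0.24.

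IL1R1 was the member whose H460 groups did not overlap in either fraction. It read 92.0, 112 and 94.2 CPM in siNT libraries and 60.6, 87.5 and 61.9 CPM after siRIC in total RNA. Its polysomal values were 38.4, 39.7 and 60.5 CPM against 23.7, 31.7 and 37.9 CPM. The log2 changes were −0.50 ± 0.25 and −0.57 ± 0.25 (adjusted p = 1 in both, edgeR quasi-likelihood), near the −0.63 of A549. Groups without overlap were seen for 14.2% of all genes in total and 3.09% in polysomal RNA. PTX3 was higher in 3 of 3 pairs of both fractions, at 0.32 ± 0.26 and 0.44 ± 0.26. CXCL1, CXCL8, NFKBIA and TNFAIP3 had changes between −0.21 and 0.06 that were not called. In fits without the block, leaving out 1 library moved CXCL1 to between −1.26 and 1.00 in polysomal RNA and up to 0.86 in total RNA. These fits do not pair the libraries, so they cannot tell whether its direction within pairs rests on single libraries. Within pairs CXCL1 was lower with siRIC in all 3 of both fractions. With the block its change was −0.07 ± 0.12 in total and −0.13 ± 0.12 in polysomal RNA, not called in either. CXCL8 in polysomal RNA, with library 3 of siNT at 2352 CPM against 995 and 836 CPM, was higher with siRIC in pairs 1 and 2 and lower in pair 3. Its log2 change of −0.21 became 0.14 without both polysomal libraries of replicate 3, and neither was called.

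A fit with the block on only the groups compared, added after the data had been seen, called CXCL2, CXCL3, CXCL5 and IL1R1 lower in H460. This held in both fractions, with adjusted p from 0.00450 to 0.00861 in total and from 0.0178 to 0.0343 in polysomal RNA by edgeR's quasi-likelihood test. It called 3.61% of all genes in total and 0.736% in polysomal RNA. Of the other listed pathway genes, the same fit called 3 higher and 5 lower of 99 tested in total RNA and 2 lower of 100 in polysomal RNA. They included the co-receptor IL1RAP, at −1.24 in total (adjusted p = 1.54e-04) and −1.21 in polysomal RNA (7.70e-04), and MMP1, at −0.67 and −0.65 (0.00362 and 0.0112). The fit of all H460 libraries called no member and none of 102 other listed genes, with or without the block. With the block and without both polysomal libraries of replicate 3, it called no member in polysomal RNA either, with adjusted p of 0.315 for CXCL2, 0.229 for CXCL3, 0.330 for CXCL5 and 0.296 for IL1R1.

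The lines were then compared in their siRIC response. CXCL1, CXCL2 and CXCL5 in total RNA, and these with CXCL3 in polysomal RNA, were higher with siRIC in all 3 A549 pairs and lower in all 3 H460 pairs. That pattern was found in 2.65% of all genes in total and 1.38% in polysomal RNA. The test of the difference over all 24 libraries called no member in either fraction, and it called 0% of all genes in total and 0.00606% in polysomal RNA. At an unadjusted p under 0.05 edgeR's quasi-likelihood test gave 3 members in each fraction, and 382 and 578 of all 16507 genes. DESeq2 called no member. CXCL5 differed by −0.99 ± 0.37 in total and −1.21 ± 0.37 in polysomal RNA, and CXCL8 by −1.22 ± 0.53 and −1.93 ± 0.53. With the replicate number within each line as a block, the closest values were an adjusted p of 0.0521 for CXCL2 in total RNA and 0.0590 for CXCL5 and CXCL8 in polysomal RNA (edgeR quasi-likelihood).

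In a fit of only these 4 groups that included the block, again added after the data had been seen, the difference in total RNA was called for CXCL1, CXCL2, CXCL3, CXCL5, CXCL8 and PTX3. The adjusted p ranged from 2.38e-04 for CXCL5 to 0.0436 for CXCL3 by edgeR's quasi-likelihood test, and the fit called 3.4% of all genes. In polysomal RNA it called no member, with 0.0966 for CXCL5 the closest, and 0.026% of all genes. IL1R1 was not called as different between the lines in any of these fits (0.13 ± 0.30 in total and 0.06 ± 0.31 in polysomal RNA).

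Polysomal RNA was set against total RNA in siNT cells to see which transcripts were over- or under-represented on polysomes. IL1R1 was called lower in polysomal RNA in both lines. In A549 CXCL2 and CXCL3 were also called lower and NFKBIA higher, and in H460 TNFAIP3 was called lower. Thus 4 of 9 tested members were called in A549, where 37.1% of all genes were, and 2 of 10 in H460, where 22.9% were. With the block, 35.6% of genes in H460 were called and CXCL2 joined the members called.

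**Figure D4:**
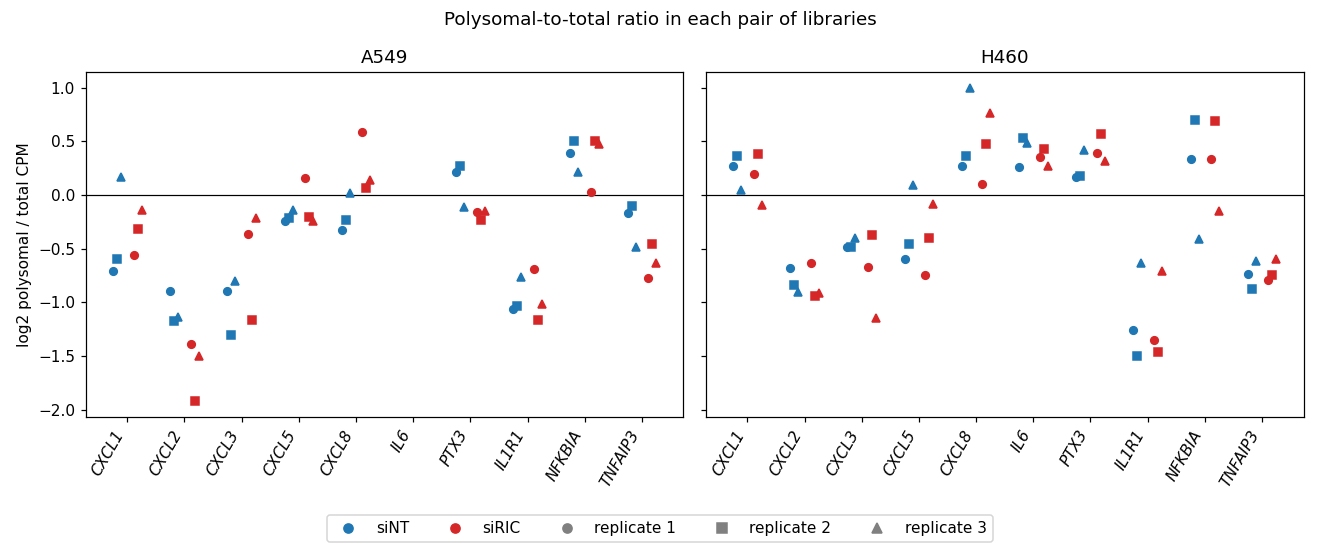
Log2 ratio of polysomal to total CPM (y axis) in each pair of libraries of one siRNA and replicate number, for each gene and line, with siNT in blue and siRIC in red. Symbols are replicate numbers and IL6 is not drawn for A549. CXCL2, CXCL3, IL1R1 and TNFAIP3 are below 0 in all 12 pairs.

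For IL1R1 the log2 ratio of polysomal to total CPM was −1.07, −1.03 and −0.77 in the 3 A549 siNT pairs of libraries and −1.26, −1.50 and −0.64 in those of H460. All were below 0, and the pair with H460 siNT polysomal library 3 was the nearest to 0. The fitted log2 differences were −0.92 ± 0.17 (adjusted p = 7.61e-04, edgeR quasi-likelihood) and −1.11 ± 0.25 (adjusted p = 0.00802). CXCL2 was at −1.07 ± 0.27 and CXCL3 at −1.01 ± 0.25 in A549 (adjusted p = 0.00577 and 0.00512). In H460 CXCL2 was at −0.83 ± 0.52, not called without the block and called with it (adjusted p = 8.56e-04, edgeR quasi-likelihood).

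TNFAIP3 was at −0.75 ± 0.17 in H460 (adjusted p = 0.00686, edgeR quasi-likelihood) and −0.24 ± 0.21 in A549. NFKBIA was at 0.40 ± 0.14 in A549 (adjusted p = 0.0415), a call lost in 7 of 12 fits that left out 1 library, up to 0.135. In H460 its ratios were 0.34, 0.70 and −0.41, the last from the library that stands apart, and without both polysomal libraries of replicate 3 its difference was 0.69 and called (adjusted p = 0.0399). CXCL1, CXCL5, CXCL8, IL6 and PTX3 were not called in a line where they were tested.

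The polysomal-to-total ratio did not show a called change with siRIC for any member or any other gene (0% called in A549 and 0% in H460 by edgeR's quasi-likelihood test). At an unadjusted p under 0.05 there were 177 and 89 genes, with 0 members in both lines, and DESeq2 called 1 gene in each line, no member. The largest fitted changes of the ratio among members were −0.57 ± 0.38 for CXCL2 and 0.53 ± 0.48 for CXCL8 in A549, and the latter was 0.01 without the siRIC polysomal library 1 that stands apart. In H460 every member lay between −0.21 and 0.12, with standard errors from 0.23 to 1.14.

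In H460, CXCL1, CXCL2 and CXCL3 differed more between replicate 2 and the other libraries than between siRNAs. Averaged over its 4 libraries, replicate 2 had 4.04 times the CXCL1 level of the other libraries, 3.03 times for CXCL3 and 2.36 times for CXCL2, while CXCL8 was at 0.637 times. NFKBIA was at 1.68 times. In A549 the same ratios ran from 0.775 for CXCL8 to 1.13 for PTX3. Replicate 2 of H460 carries the number 6 in its library names, as does replicate 3 of A549. The titles call the libraries replicates, and no source used here says what differed between them.

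**Figure D5:**
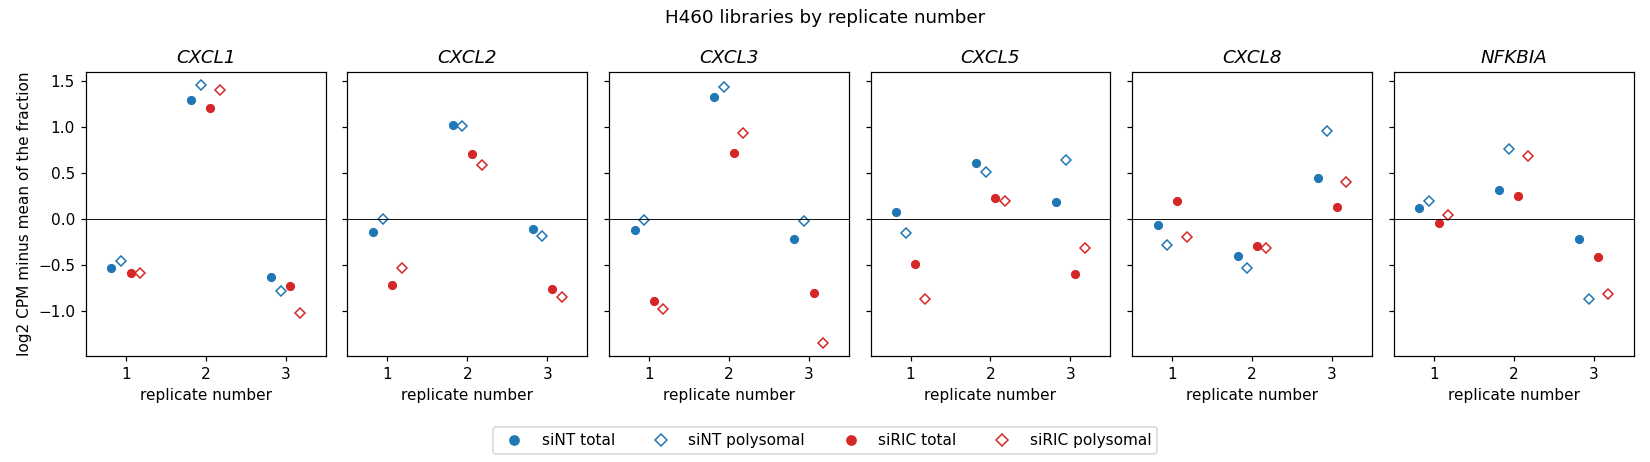
Level of 5 chemokines and NFKBIA in the 12 H460 libraries, as log2 CPM minus the mean of the fraction (y axis), by replicate number (x axis). Colours give the siRNA and filled or open symbols total or polysomal RNA. All 4 libraries of replicate 2 are the highest for CXCL1, CXCL2 and CXCL3 in their siRNA and fraction, and CXCL8 does not share this.

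How the members varied together differed between the lines, as a description over 12 libraries centred on line and fraction, which share siRNA and replicate number. In A549 CXCL5 and CXCL8 had r = 0.967, CXCL8 and PTX3 0.881, and PTX3 and IL1R1 −0.861. In H460 CXCL2 and CXCL3 had r = 0.983 and CXCL1 and CXCL2 0.926, while CXCL8 went against CXCL1 (−0.724) and NFKBIA (−0.899).

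Over all 24 libraries, centred in the same way, the non-member genes most like each member were looked for among 10502 genes whose mean reached 5 CPM. CXCL8 was most like MCTP1 (r = 0.933), F2RL1 (0.915), the gene of a protease-activated receptor, and CD55 (0.911), a complement regulator. PTX3 was most like SPRY2 (0.927), which restrains growth factor receptor signalling, STAMBPL1 (0.906) and EGLN1 (0.862), an oxygen-sensing prolyl hydroxylase. For IL1R1 they were KLHL15 (0.948), FAM8A1 (0.931) and RICTOR itself (0.924). CXCL5 was most like PLPP5 (0.843), BIRC3 (0.834), an NF-κB target, and DIO2 (0.821), and NFKBIA like TUBA1A (0.977), BAIAP2 (0.965) and TUBB2A (0.960). The other 5 members had their closest gene at r from 0.813 for TNFAIP3 with C2CD2 to 0.891 for CXCL1 with MANEAL. These correlations carry no p, and the libraries share siRNA, replicate number and depth.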

How the data were processed

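Total and polysomal RNA of A549 and H460 cells was sequenced. The authors deposited 1 table of estimated counts per gene, not normalized, with a column per library; its name gives salmon as the tool. Per the submitters' processing notes, bcl2fastq 2.20 and GRCh38 were used; the sources used here do not give salmon's version, the annotation or any filters. The molecule label reads polyA RNA and the protocol a stranded total RNA kit, which was not settled. Of 60666 gene IDs, 60437 matched a symbol.

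Estimated counts, of which 9.40% were not whole, were rounded. Genes were filtered with filterByExpr by group (minimum count 10), scaled by TMM and tested in R 4.3.3 by the quasi-likelihood functions (glmQLFit, then glmQLFTest) of edgeR 4.0.16. The SE is the absolute log2 change divided by the square root of F. Benjamini-Hochberg adjustment ran over every gene in the fit and adjusted p up to 0.05 was called. The 12 libraries of a line (8 residual degrees of freedom), or all 24 for comparisons of lines (16), were fitted without a block in 12 comparisons. Fits were tested on simulated counts. Alternatives were DESeq2 1.42.0, median-of-ratios size factors, no filter, only the groups compared, a replicate block, and leaving out libraries. Bounds for 0 counts use 3 counts and intervals a 95% level. Promoter windows are from RefSeq.

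Replicate numbers pair libraries of a line because libraries of equal replicate number also share the number in their library names. Deviations from group means correlated with r from 0.0207 to 0.259 (A549) and 0.0464 to 0.670 (H460) for equal numbers, and at most 0.126 for different ones. Replicates of every group differed beyond sampling noise (chi-square per degree of freedom 8.82 to 184).

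The members and lists were chosen with earlier results of these data known. All 10 members are named in each comparison; of other lists, called genes (at most 4 with the smallest p per list) or otherwise up to 2, and for likeness the 3 genes with the highest r. The values of 1 listed gene are not reported here.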

Additional observations from a re-analysis of the deposited data

Results flagged for a closer look

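In 7 cases the siRIC response of a chemokine went one way in all 3 pairs of A549 and the opposite way in all 3 pairs of H460. In total RNA the response in H460 minus that in A549 (log2) was −0.46 for CXCL1, −1.11 for CXCL2 and −0.99 for CXCL5. In polysomal RNA it was −0.55 for CXCL1, −0.58 for CXCL2, −1.15 for CXCL3 and −1.21 for CXCL5. The difference itself was tested with edgeR's quasi-likelihood test over all 24 libraries and was not called for any of them, with adjusted p of 1.00 for 6 of them and 0.889 for CXCL5 in polysomal RNA. The fit of only the 4 groups with the replicate block, added after the data had been seen, called it in total RNA for CXCL1 (adjusted p = 0.0366), CXCL2 (0.00121) and CXCL5 (2.38e-04). With no filter on low counts it was called for CXCL5 in polysomal RNA (0.0264).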

How the results depend on the processing

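No called member value changed direction under any alternative, of 2589 computed; 129 values called in neither fit changed sign, 35 lost and 43 gained a call, and 4 of 80 group levels moved by more than 1 SD with unscaled library totals. In A549 total RNA 1 of 9 tested members was called after siRIC. DESeq2 called 3, no filter 3, only the groups compared 2, the replicate block 3, and leaving out 1 library 0 to 2. The block with only the groups compared called 5, in a fit that called 18.6% of all genes. PTX3 is among the 5 and is not read against that share. In A549 polysomal RNA 1 was called; DESeq2 called 3, no filter 3, the replicate block 4 (also 4 omitting siRIC polysomal replicate 1), the block with only the groups compared 2, and leaving out 1 library 0 to 2. In H460, where 0 members were called, the block with only the groups compared called 4 in total and 4 in polysomal RNA. For the difference between lines, also 0, it called 6 in total RNA, and no filter 2 in polysomal RNA (CXCL5, adjusted p = 0.0264, and CXCL8, 3.23e-06, edgeR quasi-likelihood). The block with fewer groups or omitted libraries was added after the data had been seen. The causes were not tested.

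Over all genes, A549 total RNA had 50 calls (0.325%), and 164 with DESeq2, 257 without filter and 152 with only the groups compared. It had 258 (1.68%) with the block and 2794 (18.6%) with both. A549 polysomal RNA had 104, and 346, 413, 35, 540 and 336 in the same order, with 2401 with the block omitting siRIC polysomal replicate 1. H460 had 0 in total RNA, 517 with the block on only the groups compared and at most 4 in other fits that did not leave out a single library; in polysomal RNA these were 0, 100 and 7. The difference between lines had 0 in total and 1 in polysomal RNA, against 52 and 47 without filter, 7 and 9 with DESeq2, and 548 and 4 in the block fit of the compared groups alone. H460 siNT polysomal against total RNA had 3347, against 7031 omitting both polysomal libraries of replicate 3, 5187 with the block and 2146 with only the groups compared. The polysomal-to-total ratio had 0 in both lines, against 59 and 3 without filter. Low levels limit the precision in A549, where IL6 had at most 2 counts in a group and PTX3 was under the filter's cut-off of 0.448 CPM in 5 of 6 siNT libraries.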
